A study of Mus musculus with 98 samples.

Results

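Human genes were followed in 15 livers of mice carrying human hepatocytes, ordered by how much of each liver's RNA was human. The human share of a liver was the percentage of its counts that lay in human rows of the deposited count table, and it served to place the livers. There were 7 livers with a share of 60% or more and 8 with a share under 60%, out of 98 samples in the series. The table has 37418 rows, of which 17729 are human genes, and 13584 human rows had enough counts to be tested. The share is one of RNA, and in such bulk libraries fewer human cells and less RNA per human cell cannot be told apart.

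The study measured RNA in tissues of male FRGN mice aged 10 weeks, which lack Fah, Rag2 and Il2rg (Fah-/-, Rag2-/-, Il2rg-/-) and come from a cross with the non-obese diabetic strain. Hu livers were repopulated with human hepatocytes and Mu livers with murine hepatocytes, both given by injection into the spleen, and tissue was taken at zeitgeber times (ZT) 2, 6, 10, 14, 18 and 22. By the labels, all mice cycled on nitisinone at 8 mg/l for 3 days every 5 weeks with SMX/TMP antibiotics and dextrose, and only mice with more than 70% human hepatocyte repopulation were used. The human cells came from a tissue distribution system, and the labels do not say how many donors there were or which liver had which. They also do not say that each library came from its own mouse, so the p-values here measure the spread between these libraries.

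Loss of FAH, the last enzyme of tyrosine breakdown, lets toxic metabolites build up in the host's own hepatocytes, and transplanted hepatocytes with a working enzyme outgrow them. Nitisinone blocks the pathway at an earlier step and protects the host cells. A repopulated liver is therefore a mixture in which the hepatocytes may come from both species while blood vessels, macrophages and connective tissue come from the mouse.

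The human share ran from 15.9% to 93.1% over the 15 livers, with a median of 58.7%. The 95% Wilson intervals of single livers cover counting error only and are narrow at this depth, from 15.86% to 15.87% in the liver with the lowest share. Among livers under 60%, the share was 15.9% (ZT2 replicate 1), 24.96% (ZT6 replicate 1), 35.3% (ZT2 replicate 3) and 42.7% (ZT22 replicate 1) in the lowest 4. It was 52.5% (ZT22 replicate 2), 53.7% (ZT18 replicate 2), 54.3% (ZT18 replicate 1) and 58.7% (ZT6 replicate 2) in the other 4. Livers at 60% or more had shares of 65.3% (ZT6 replicate 3), 66.3% (ZT10 replicate 1), 67.9% (ZT14 replicate 1), 73.9% (ZT2 replicate 2), 79.8% (ZT14 replicate 2), 81.3% (ZT10 replicate 2) and 93.1% (ZT18 replicate 3). The livers nearest the 60% limit were thus ZT6 replicate 2 at 58.7% and ZT6 replicate 3 at 65.3%. A share of 70% or more of the counts was found in 4 of 15 livers, whereas the labels' limit of 70% refers to repopulation by hepatocytes, which is another denominator.

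**Figure D1:**
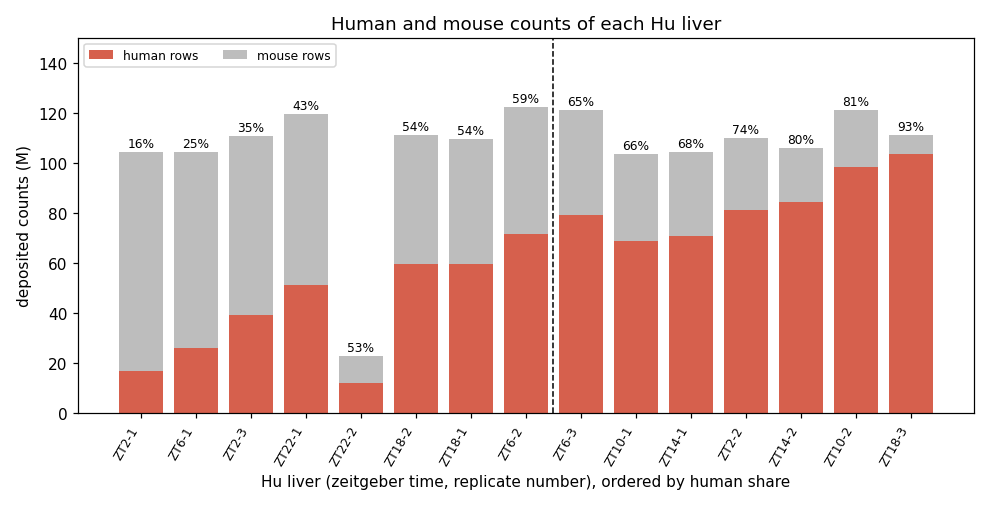
Deposited counts in M (mega) in human rows (red) and mouse rows (grey) of the 15 Hu livers, ordered by human share, which is printed above each bar; the dashed line marks 60%. Human counts ran from 12.05 M in ZT22 replicate 2, the shallowest library, to 103.4 M in ZT18 replicate 3.

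The share was not spread evenly over the day. All 4 livers of ZT10 and ZT14 had 60% or more, both livers of ZT22 had less, and 3 of 9 livers of ZT2, ZT6 and ZT18 had 60% or more. The fits therefore carried a cosine and a sine of a 24 h period beside the share. Human counts per liver were 68.6 to 103.4 M (median 81.2 M) at 60% or more and 12.05 to 71.7 M (median 45.03 M) under 60%, so the precision of human rows was lower in the less humanized livers. The number of human rows with at least 1 count was 15412 to 15808 at 60% or more and 14188 to 15428 under 60%. After all livers were thinned to the same 12.05 M human counts, these ranges became 14173 to 14719 and 14016 to 14505, which overlap over most of their length.

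Rank correlations of human expression between livers were high and similar within and between the sides of the split. The Spearman correlation of log2 CPM (a row's counts scaled to a library of 1 M human counts) between livers, taken across the tested rows, had a median of 0.974 over all 105 pairs, with a range of 0.936 to 0.994. The median was 0.975 for the 21 pairs with both livers at 60% or more, 0.976 for the 28 pairs with both under 60%, and 0.974 for the 56 pairs with 1 liver on each side. The most similar pair, with a correlation of 0.994, was ZT6 replicates 2 and 3, the livers on either side of the 60% limit. These livers share a time and had shares of 58.7% and 65.3%. Rows are not independent replicates, so these correlations describe the libraries. They also carry the differences in level between genes, which all livers have in common.

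The libraries fell into separate sets along another line. On the first principal component of the human rows, which held 39.9% of the variance, 5 livers had scores of -53.2 to -42.8 and the other 10 had scores of 2.34 to 61.3. The 5 livers were replicate 1 of ZT2, ZT6, ZT14, ZT18 and ZT22. Their shares of 15.9% to 67.9% (median 42.7%) overlapped those of the other 10, which were 35.3% to 93.1% (median 65.8%), but 4 of the 5 lay under 60% and 6 of the other 10 lay at 60% or more. The median correlation between livers was 0.986 within the 5, 0.980 within the other 10 and 0.971 for pairs across the sets. Of 13584 tested rows, 943 (6.94%) had TMM-scaled CPM (trimmed mean of M values) that did not overlap between the 5 and the other 10. Of these rows, 432 were higher and 511 lower in the 5. This set was defined from the same human rows, so the count and the correlations are descriptions. The labels give no donor, batch or date that would name the set. The counts of rows called in the trends below, and the slopes of the rows given by identifier, are therefore also given with the set as a term in the model. Replicate 1 of ZT10, the remaining liver numbered 1, lay at the opposite end of component 1, with a score of 61.3, and had the lowest median correlation to other livers, 0.954.

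**Figure D2:**
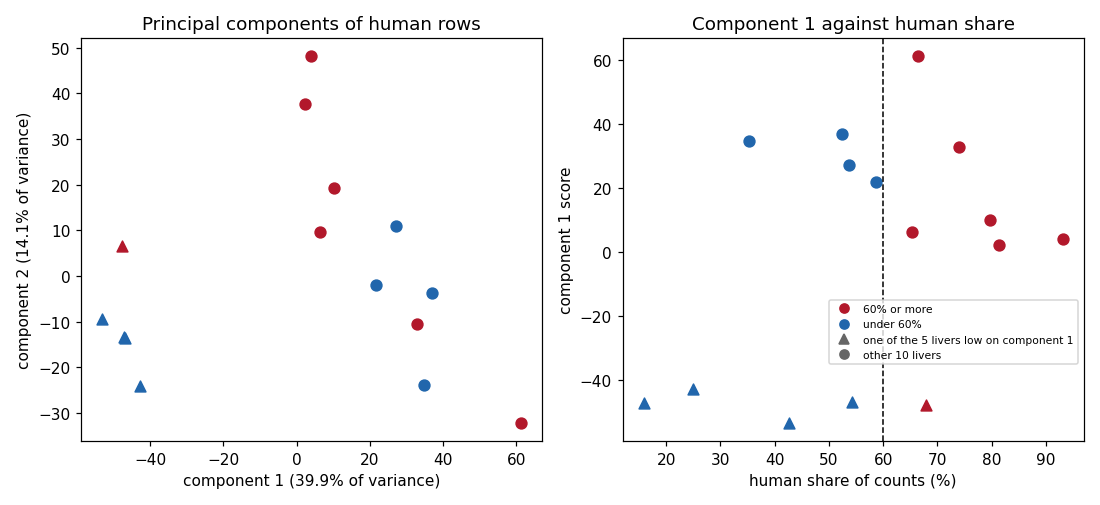
Left, scores of the 15 Hu livers on the first 2 principal components of log2 CPM of human rows. Right, component 1 against human share in percent, with the dashed line at 60%. Red and blue mark livers at 60% or more and under 60%; triangles are the 5 livers with scores of -42.8 or lower, circles the other 10, and both colours occur in both sets.

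The question put to the human genes was whether their levels, relative to all human RNA, followed the degree of humanization. In edgeR's quasi-likelihood test on the share as a continuous variable, 1 of 13584 rows (0.00736%) passed a Benjamini-Hochberg adjusted p of 0.05. The slope is given as log2 change per 10 percentage points of share. Its median over all tested rows was 0.00073, and 90% of rows lay between -0.14 and 0.16, with a median standard error (SE) of 0.037. TMM scaling over the same rows draws typical differences between livers to 0, so a median near 0 follows largely from it. At an unadjusted p under 0.05 there were 1723 rows, 848 with a positive and 875 with a negative slope, where 679.2 is 5% of the rows tested. Of these 1723 rows, 488 had TMM-scaled CPM that did not overlap between the 5 livers and the other 10, against 943 of all 13584 tested rows (6.94%). With that set as a term, no row passed the adjusted threshold and 845 had an unadjusted p under 0.05. Of the 845 rows, 174 were among the 1723, which make up 12.7% of all tested rows. The count of calls depended on the tool, since DESeq2's Wald test called 220 rows, 87 higher and 133 lower with share, and on single libraries. Without ZT18 replicate 2 the edgeR test called 33 rows, without ZT6 replicate 3 it called 1, and without any of the other 13 livers in turn it called 0.

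The split at 60% gave no call. Of 13584 rows, 0 (0%) differed between the 7 livers at 60% or more and the 8 under 60% at an adjusted p of 0.05 in the edgeR test, where the smallest adjusted p was 0.996. An unadjusted p under 0.05 was reached by 361 rows, fewer than the 679.2 that make up 5%. DESeq2 called 0 rows as well, with 518 at an unadjusted p under 0.05. The median difference over all rows was 0.00074 log2 units, which again follows largely from TMM scaling, and 90% of rows lay between -0.41 and 0.47. Only 7 rows (0.0515%) had TMM-scaled CPM that did not overlap between the sides, 4 of them higher and 3 lower in every liver at 60% or more.

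A missing call does not show that a gene was level, so unadjusted 95% intervals of single rows are given. They come from the fits without the set of 5 livers, 4 of which lay under 60%. Intervals with the set as a term were not counted, so the counts below hold for the model without it. With the set, the median SE was 0.045 against 0.037 for the trend and 0.146 against 0.157 for the split. The shares spanned 77.2 percentage points. For 7252 rows (53.4% of those tested), the whole 95% interval of the trend lay within a 2-fold change in either direction over that span. For the split, 10899 rows (80.2%) had an interval within 2-fold. The median half-width was 0.61 log2 units for the trend over the whole span and 0.34 for the split. Precision differed between levels of expression and was highest between 10 and 100 CPM. The trend interval lay within 2-fold for none of the 1403 rows under 1 CPM, for 35.9% of the 3835 rows between 1 and 10 CPM, for 71.9% of the 7015 rows between 10 and 100 CPM, for 63.5% of the 1241 rows between 100 and 1000 CPM, and for 50% of the 90 rows over 1000 CPM.

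**Figure D3:**
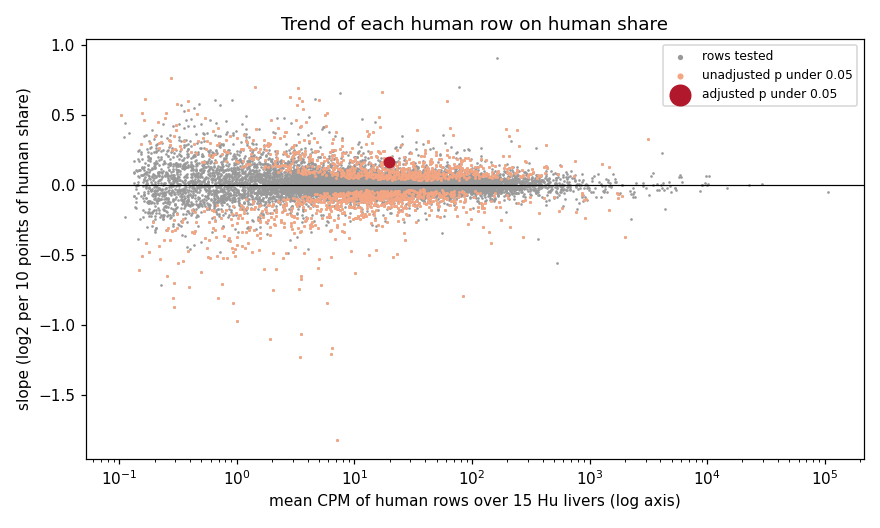
Slope on human share (log2 per 10 percentage points) of each of the 13584 tested human rows against its mean CPM over the 15 Hu livers (log axis). Orange points had an unadjusted p under 0.05 and the red point passed the adjusted threshold. The points centre near 0 at all levels, which TMM scaling over these rows favours, and spread widest under 10 CPM.

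Positive and negative slopes among rows with an unadjusted p under 0.05 were counted in the same classes. There were 58 positive and 74 negative slopes under 1 CPM, 250 and 315 between 1 and 10 CPM, 448 and 437 between 10 and 100 CPM, 89 and 43 between 100 and 1000 CPM, and 3 and 6 over 1000 CPM. With the set of 5 livers in the model, the counts were 19 and 81, 61 and 177, 263 and 139, 79 and 23, and 3 and 0 in the same order. The median slope over all rows of a class, without the set, was 0.010 under 1 CPM and -0.0071 over 1000 CPM. None of the rows counted with the set in the model passed adjustment, and differences between classes were not tested.

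Between the sides of the split, median parts of human RNA were close for the 3 most abundant rows and for the top 10 and 100. The single most abundant row held 4.33% to 13.8% of human counts over the 15 livers, with medians of 10.6% at 60% or more and 11.4% under 60%. Its lowest value was that of ZT10 replicate 1, and all other livers had 8.78% or more. The second row held 2.75% to 3.34%, with medians of 2.92% and 2.90%, and the third 2.02% to 2.56%, with medians of 2.30% and 2.29%. Slopes of these 3 rows were -0.06 ± 0.070, 0.0031 ± 0.028 and 0.00033 ± 0.032 log2 per 10 points (± SE), with adjusted p-values in the edgeR test of 0.756, 0.972 and 0.997. None of the 10 most abundant rows was called. The largest slopes among them were 0.065 ± 0.031 in row 5 and 0.064 ± 0.033 in row 8 (adjusted p of 0.399 and 0.437, edgeR). The 10 top rows of each liver together held 17.3% to 25.4% of human counts at 60% or more (median 23.9%) and 22.7% to 26.5% under 60% (median 23.8%). The 100 top rows held 38.1% to 49.3% (median 46.1%) and 45.1% to 49.8% (median 47.0%).

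The deposited files do not pair human identifiers with gene names, and no name table for them was used here. Results for single human genes are therefore limited to the 2 rows with a positive and the 2 with a negative slope of smallest p, by identifier. Of these only ENSG00000150764 passed the test, and the other 3 are given as values. The rows were picked by their trend p on the same shares, so values that line up with share follow from the choice.

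ENSG00000150764 rose with the human share. Under 60% its CPM was, in order of rising share, 12.9, 11.5, 14.95, 16.4, 23.98, 23.7, 18.3 and 15.2. At 60% or more it was 14.5, 22.4, 18.5, 26.1, 24.96, 21.7 and 32.9. The lowest values belonged to the 2 livers with the lowest human share and the highest value to the liver with the highest share, while the sides overlapped. The slope was 0.16 ± 0.022 log2 per 10 points (adjusted p = 0.0495, edgeR), which is 2.35-fold over the span of shares. With the set of 5 livers as a term the slope was 0.14 ± 0.029 and its adjusted p was 0.685 in the edgeR test. It was 0.16 ± 0.029 within the other 10 livers and 0.13 ± 0.036 within the 5, which were fitted with no time term. Between the sides the difference was 0.53 ± 0.13 log2 units (adjusted p = 0.996). In the 12 Mu livers the row had 0 to 2 counts.

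ENSG00000006652 had the next smallest p among positive slopes, 0.11 ± 0.019 log2 per 10 points, and did not pass (adjusted p = 0.164, edgeR). Its CPM ran from 15.99 to 27.1 (median 21.3) under 60% and from 19.1 to 33.4 (median 24.9) at 60% or more. Its lowest values were those of the 2 livers with the lowest human share and its highest that of the liver with the highest share, which the choice by trend p favours. With the set of 5 as a term the slope was 0.08 ± 0.023.

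The 2 rows with negative slopes were weak. ENSG00000168917 had a slope of -0.45 ± 0.078 (adjusted p = 0.164, edgeR), with 0.293 to 1.65 CPM (median 0.519) under 60% and 0.193 to 0.678 CPM (median 0.328) at 60% or more. Its 2 highest values, 1.33 and 1.65 CPM, were those of the livers at 15.9% and 24.96%, from 22 and 43 counts. With the set of 5 livers as a term its slope was -0.30 ± 0.094, and within the other 10 livers it was -0.21 ± 0.12. ENSG00000134215 had a slope of -0.81 ± 0.14 (adjusted p = 0.164, edgeR), with 0.126 to 0.921 CPM (median 0.326) under 60% and 0.0237 to 0.424 CPM (median 0.0631) at 60% or more. All of its values rested on 2 to 33 counts per liver. With the set as a term, the slope of ENSG00000134215 was -0.62 ± 0.17. It was -0.82 ± 0.18 within the other 10 livers and -0.08 ± 0.14 within the 5, which were fitted with no time term. The difference between these slopes was not tested. Both rows had 0 counts in all 12 Mu livers.

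**Figure D4:**
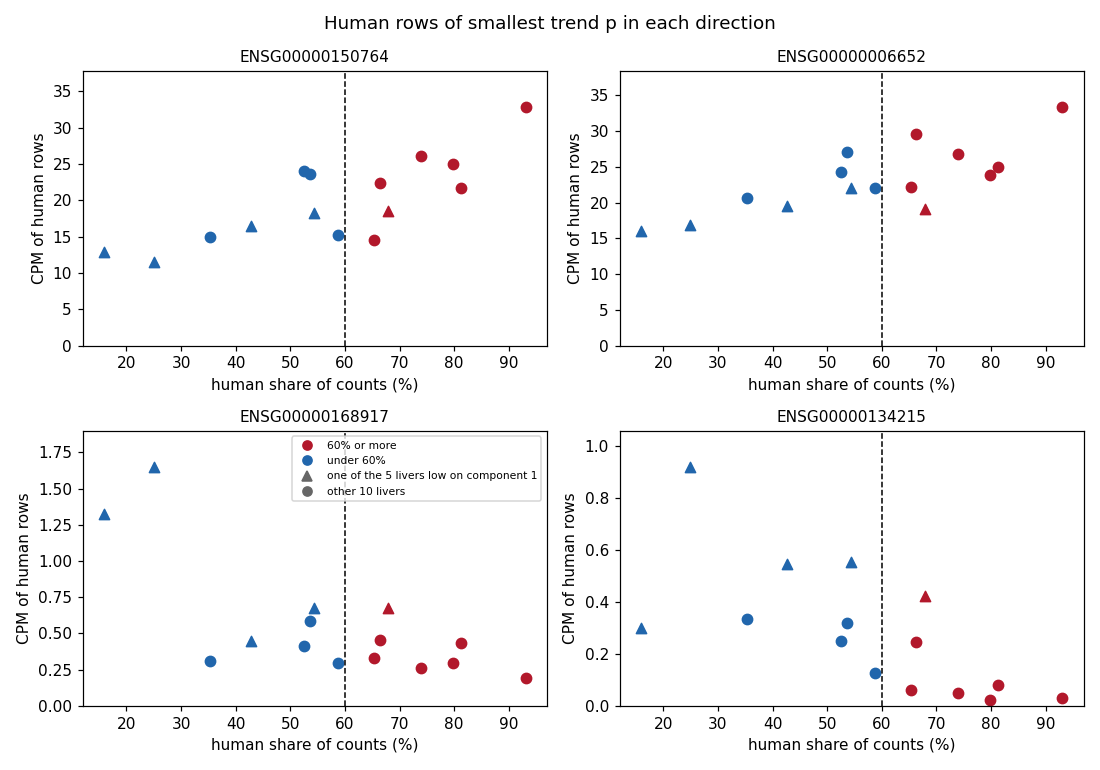
CPM of human rows against human share in percent for the 4 rows with the smallest trend p-values, 1 point per Hu liver; red and blue mark livers at 60% or more and under 60% (dashed line), triangles the 5 livers that stand apart on component 1. ENSG00000150764 and ENSG00000006652 lie higher towards large shares and the other 2 rows lower, with overlap between the sides in all 4.

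Mu livers hold no human cells, so their counts in human rows measure how often mouse RNA or stray reads were counted as human. The 12 Mu livers had 0.00592% to 0.0204% of their counts in human rows, 121096 counts in all. Of the tested rows, 5269 had 0 counts in every Mu liver. The 10 rows with most counts held 31.1% of the total, and 1 row alone held 12.9% of it while holding 0.0323% of the human counts of Hu livers. In contrast, the row that was most abundant in Hu livers, with 10.5% of their human counts, held 6.03% of the human-row counts in Mu livers. Over the tested rows, the Spearman correlation between total Mu and total Hu counts was 0.80, given as a description across rows. In 61 rows with at least 24 counts, the share held in Mu livers was more than 10 times that in Hu livers, and these rows held 27.9% of the human-row counts of Mu livers.

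Scaled by the mouse counts of each Hu liver, the Mu rates gave an expected number of mouse reads in each human row. Expected mouse reads made up 0.051% of human counts in the liver with the lowest share and 0.00071% in that with the highest, a fall that follows from scaling 1 fixed rate by the ratio of mouse to human counts. Stray human reads in Mu libraries, if any, are scaled here as if they were mouse reads. Over the tested rows, the median of the highest expected percentage in any Hu liver was 0.025%. It exceeded 1% in 148 rows, 5% in 43 rows and 20% in 4 rows, with 45.4% as the highest. Of the 43 rows over 5%, 28 had a positive and 15 a negative slope on share, where the median slope of all tested rows was 0.00073. An unadjusted p under 0.05 was reached by 4 of the 43 and by 12.7% of all tested rows. The median mean level of the 43 rows was 0.681 CPM. With expected mouse reads subtracted, 1 row was called in the trend and 0 in the split, as without it. The rates come from Mu livers, where endothelial markers summed to 342 to 408 CPM of mouse rows against 483 to 4781 in Hu livers, so genes of host vessels weigh less in them.

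The rows were also fitted on the log2 ratio of mouse to human counts, which ran from -3.75 to 2.41 over the livers. A row holding mouse reads alone would have a slope near 1 in this fit if its mouse source kept a constant part of the mouse RNA. Endothelial markers did not: their sum was 520 CPM of mouse rows at the lowest share and 4781 at the highest. Reads from such genes would have a slope under 1, so this fit cannot count them. The 95% interval reached 1 in 130 tested rows (0.957%), which together held 0.169% of human counts and had a median mean level of 1.08 CPM. The median slope over all tested rows was 2.36e-05.

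**Figure D5:**
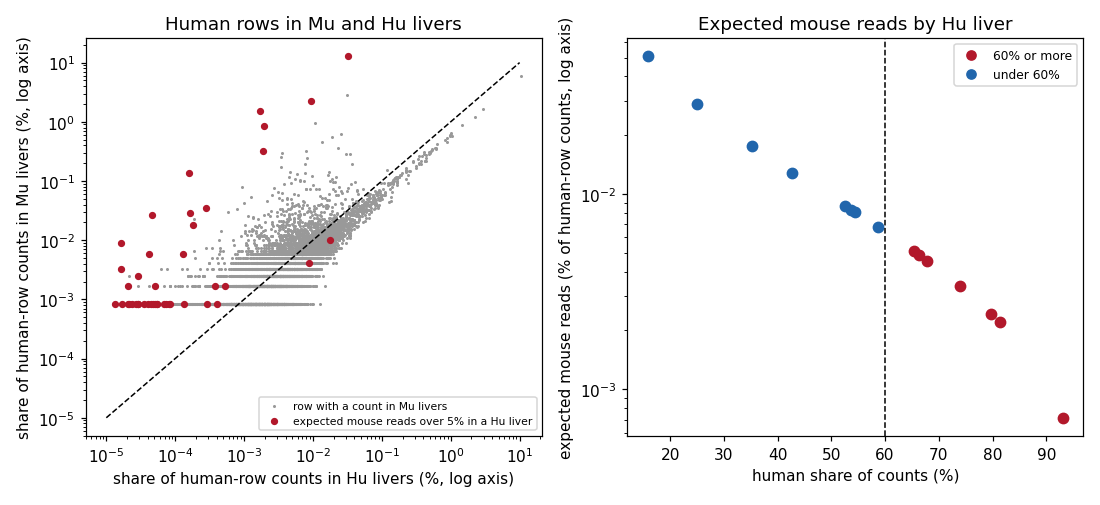
Left, share of all human-row counts held by each tested row in the 12 Mu livers against the 15 Hu livers (percent, log axes; rows at 0 in Mu livers not drawn); the dashed line marks equal shares and red points have expected mouse reads over 5% in a Hu liver. Right, expected mouse reads as percent of human-row counts (log axis) against human share, falling from 0.051% to 0.00071%.

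The mouse rows of the same 15 livers gave a different count under the same model. Their scale, all mouse RNA, also enters the share, so scale and share are not independent. The same holds for the human rows, whose scale, all human RNA, enters the share as well. Relative to all mouse RNA, 5940 of 14751 mouse rows (40.3%) passed the trend on human share in the edgeR test, 3239 (22%) higher and 2701 (18.3%) lower with share. Markers of host cell types were among them. All 11 markers of stellate cells and fibroblasts tested were higher with share, among them Lrat, which stores vitamin A in stellate cells (slope 0.58 ± 0.045, adjusted p = 1.75e-05, edgeR), and Dcn, a matrix proteoglycan (0.48 ± 0.049, adjusted p = 5.07e-05). The same held for 8 of 9 endothelial markers, such as Stab2, a scavenger receptor of sinusoidal endothelium (0.34 ± 0.042, adjusted p = 0.000123). It also held for 7 of 11 macrophage markers, such as C1qa, a complement subunit (0.24 ± 0.052, adjusted p = 0.00378), and for 4 of 5 cholangiocyte markers. Of 7 hepatocyte markers 4 were lower with share, among them F9, a coagulation factor (-0.38 ± 0.093, adjusted p = 0.00683), and 3 did not pass. The 1 lymphocyte marker tested was higher, and 0 of 2 erythroid markers passed, with a negative median slope of -0.31. With the set of 5 livers as a term, 1295 of 14751 mouse rows were called, 893 higher and 402 lower with share. Of the markers, 8 of 9 endothelial and 5 of 11 stellate and fibroblast ones were higher. With the set, 0 macrophage, cholangiocyte, lymphocyte, erythroid or hepatocyte markers passed. Single livers moved the count as well, to 3405 without ZT18 replicate 3 and 3947 without ZT2 replicate 2. Without ZT18 replicate 3, 1924 mouse rows were higher and 1481 lower with share, of 14878 tested. The markers higher were then 8 of 9 endothelial, 11 of 11 stellate and fibroblast and 5 of 11 macrophage ones. Of cholangiocyte and lymphocyte markers 0 of 5 and 0 of 1 were higher, and 3 of 7 hepatocyte markers were lower.

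These host markers moved along the same axis as the human rows were tested on. Summed over each list, endothelial markers reached 1006 to 4781 CPM of mouse rows at 60% or more and 483 to 954 under 60%, and the sides did not overlap. The mouse total divides these sums and also enters the share. A sum that is level per count of both species therefore rises with share on this scale. Stellate and fibroblast markers reached 1378 to 9830 and 535 to 1620 CPM of mouse rows, macrophage markers 1167 to 6450 and 821 to 1554, both with overlap. The upper ends at 60% or more came from ZT18 replicate 3, the liver with the highest share, and without it they were 1875, 4978 and 2327 CPM for the 3 lists. Mouse Alb, the host's albumin gene, was at 12029 to 74072 CPM (median 55622) at 60% or more and 53444 to 74961 CPM (median 60224) under 60%. Its lowest value was also that of ZT18 replicate 3, and without that liver the lowest at 60% or more was 40075 CPM. Human reads counted on mouse rows were not measured.

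The direction of some host lists, by their medians, depended on the scale. Per 1 M of all counts, human and mouse together, the endothelial sum had a median of 349.9 (323 to 434) at 60% or more and 399.96 (363 to 438) under 60%. The macrophage sum had medians of 434 (405 to 721) and 697 (470 to 756). The cholangiocyte sum had medians of 17.1 (15.7 to 49.5) and 28.9 (16.5 to 57.2). The endothelial, macrophage and cholangiocyte medians were all lower at 60% or more on this scale, with overlap between the sides. The stellate and fibroblast sum had medians of 647 and 579, with overlap between the sides, and its median was higher at 60% or more on both scales. The hepatocyte median was lower at 60% or more on both scales. It was 13443 against 40923 per 1 M of all counts and 65823.5 against 71945.5 CPM of mouse rows, with overlap on both. The part of host cells in the slopes of human rows was not tested beyond the background in Mu livers. Mouse Fah, deleted in the host, was at 6.23 to 35.8 CPM in Hu livers and 442 to 687 CPM in Mu livers, whose transplanted mouse hepatocytes carry the gene.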

How the data were processed

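The authors deposited raw counts per gene for liver, with 1 column per library and human and mouse genes in separate rows; the values are whole numbers with no normalization. RNA was isolated with RNeasy and libraries were made with NEBNext Ultra II Directional, per the labels' protocols. The submitters' processing notes name STAR and the builds GRCm38, mm10, hg38, GRCh38 and hg19 without roles; the counting program, the annotation, how reads were assigned to a species and any row filter are not given in the sources used here. Hu livers had 22.95 to 122.2 M counts.

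Groups and times came from the labels, and human share was computed from the counts. Human rows of the 15 Hu livers were fitted in edgeR 4.0.16 (R 4.3.3) with the library size over human rows, TMM scaling (trimmed mean of M values), filterByExpr on the 60% split, and a model of share (per 10 points) or side plus a cosine and a sine of 24 h. Quasi-likelihood F tests were adjusted over all tested rows by Benjamini-Hochberg and called under 0.05. SEs were derived from the slope and the F statistic. CPM were counts scaled to 1 M human counts, and log2 CPM used TMM and a prior count of 2. Counts of tested rows that did not overlap between groups of livers used CPM with TMM scaling. Mouse rows were fitted in the same way, with markers matched by symbol. DESeq2 1.42.0, other scalings, filters, time terms, share scales, background corrections and left-out libraries were alternatives, and fits with the 5 livers that stand apart, and left-out livers for mouse rows, were added after seeing the data. The scripts were tested on simulated data. Expected mouse reads were each row's counts per mouse count over the 12 Mu livers times the mouse counts of a Hu liver.

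The members, the split and the lists were chosen with earlier results of these data known. Rows given by identifier are the 2 of smallest trend p in each direction with expected mouse reads under 5% in every Hu liver; the rule had asked for called rows, of which there was 1. Lists of human genes by symbol could not be matched to human rows and were not used. Any 2 Hu livers differed in at least 14716 human rows, so none was deposited in duplicate.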

Additional observations from a re-analysis of the deposited data

Results flagged for a closer look

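Of 16 sets of values checked (8 quantities on each side of 60%), 1 had a liver far from the rest, where chance flags about 1 in 20. The TMM factor of ZT10 replicate 1 was 1.23, with the nearest of the other 6 livers at 60% or more at 1.03 and the lowest at 0.921. In the same liver the most abundant human row held 4.33% of human counts. Without it, 0 rows were called in the trend and 0 in the split.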

How the results depend on the processing

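The count of 0 in the 60% split stayed at 0 in all 33 alternatives, among them splits at 50% and 70%. The trend's count of 1 was the same with robust fitting, with expected mouse reads subtracted and without ZT6 replicate 3, and in the other 10 livers alone, where the row was another one. It was 220 in DESeq2, 28 with no time term and 2 with no filter on low counts. It was 0 with no TMM factors, RLE factors, upper quartile factors, at least 10 counts in every liver, ZT as a factor, the logit of the share, rows over 5% expected mouse reads left out, human counts thinned to 12.05 M, livers under 30% left out, the 5 livers that stand apart as a factor, and those 5 livers alone with no time term. Leaving out each of the 15 livers gave 0 to 33 calls in the trend and 0 in the split. The cause of these changes was not tested. With the replicate number as a block, the trend had 0 calls and the split 0, and rows of unadjusted p under 0.05 in the trend went from 1723 to 433. The labels tie the numbers to nothing shared. The mean correlation of deviations was -0.039 for 33 pairs of equal number and -0.073 for 72 others, and 4 of 15 livers matched best with one of their own number, while 5 of the 6 livers numbered 1 form the set that stands apart on component 1. ENSG00000150764 kept a positive slope in all 33 alternatives and passed in 7, with adjusted p-values from 1.64e-06 to 0.959; without single livers its slope was 0.14 to 0.17. The 4 rows given by identifier changed sign in none of the alternatives run for them, 33 for the positive and 31 for the negative ones, which had too few counts for the stricter filter or for thinned counts. Among mouse rows, the trend's 5940 calls became 1295 with the 5 livers as a factor and 3405 to 6374 without single livers. Thinning left 12300 of 13584 human rows to test. Expected mouse reads by the mouse gene of the same symbol, and the share from albumin counts alone, were not run, since human rows carry no names here.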
